A study of Mus musculus with 6 samples.

Results

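Lysosomal hydrolase and membrane protein genes were examined in the ventricles of mice given the aminoglycoside antibiotics paromomycin and neomycin. The 34 genes were chosen by name as lysosomal enzymes, lysosomal membrane proteins and their transcriptional regulator Tfeb, with no use of measured values, and all 34 were among the 18158 features of the deposited expression table. The mice were CD1, an outbred stock, 3 months old, with no genetic change named in the labels and no sex given. The Vehicle group, 3 mice, had daily injections of PBS. The Paro/Neo group, also 3 mice, had intraperitoneal paromomycin and neomycin at 150 mg/kg 2 times a day, and the course lasted 14 days in both. Whether 150 mg/kg is the dose of each drug or of the pair is not given in the sources used here. Each library came from the whole ventricles of 1 mouse, so every value is an average over the cell types of the tissue, and fewer cells of a type cannot be told apart from less RNA per cell.

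Lysosomes are acidic organelles that break down proteins, lipids, glycans and glycogen delivered by endocytosis and autophagy. Most of their hydrolases are made in the endoplasmic reticulum, tagged with mannose 6-phosphate and sorted to the lysosome, while heavily glycosylated membrane proteins line it and a proton pump, the V-ATPase, acidifies it. Many of these genes share a promoter element, an E-box with fixed flanks known as the CLEAR element, that is bound by TFEB, a factor held in the cytosol by mTORC1 when nutrients are plentiful and released to the nucleus under starvation or lysosomal stress. Aminoglycosides are polycations that enter cells by endocytosis, collect in lysosomes and are known, chiefly from kidney tubules, to inhibit phospholipid breakdown there. In the heart, loss of lysosomal proteins such as acid alpha-glucosidase or LAMP2 causes storage cardiomyopathy.

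The CLEAR element, mostly with a flank on 1 side only, could be read in promoters of some of these genes. The sequences are shown because they mark which of the 34 genes carry a candidate TFEB site close to the start. Promoter windows from RefSeq (GRCm38.p6, 250 bases before to 50 after each transcription start) were found for 31 of the 34 genes, 36 windows in all, and not for Asah1, Ctsb and Npc1. The palindromic E-box core CACGTG, identical on both strands, was present in windows of 12 of 31 genes, 38.7%, against 8.09% of all 27025 genes in the RefSeq table. The core with a flank on either side, GTCACGTG or its reverse complement CACGTGAC, was present in 10 of 31 genes, 32.3%, against 2.55% of all genes in that table. The 10-base palindrome with both flanks, which contains both shorter motifs, was found in Cln3 alone, 3.23% of the 31 genes against 0.370% of all. Promoters of expressed genes held these motifs more often than the table as a whole: among the 9205 tested genes with a window, 11.8% had the core and 4.82% the 8-base element. Lamp1 held 4 copies of the core in the 70 bases before its start (chr8:13159091-13159160, plus strand). In the sequences that follow, written 5′ to 3′ on the strand of the gene, capitals mark the core and any adjoining GT or AC flank. A match is a description of the letters and does not show binding.
Lamp1: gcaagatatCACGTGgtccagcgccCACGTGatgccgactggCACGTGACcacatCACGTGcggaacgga
Cln3: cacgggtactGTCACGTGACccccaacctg
Mcoln1: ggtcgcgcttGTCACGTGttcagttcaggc
Ctsd: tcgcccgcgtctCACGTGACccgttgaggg
Glb1: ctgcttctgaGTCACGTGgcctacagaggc
Naglu: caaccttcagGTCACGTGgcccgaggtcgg
Sgsh: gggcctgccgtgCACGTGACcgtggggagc
Gla: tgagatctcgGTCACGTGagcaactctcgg

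These windows lie at chr7:126583340-126583369 for Cln3, chr8:3500436-3500465 for Mcoln1, chr7:142387908-142387937 for Ctsd, chr9:114401018-114401047 for Glb1, chr11:101070009-101070038 for Naglu, chr11:119355522-119355551 for Sgsh and chrX:134601182-134601211 for Gla (GRCm38.p6). Cln3, Ctsd, Sgsh and Gla are on the minus strand and the others on the plus strand. Arsa and Ctsa also held the 8-base element, with its first base at -18 and -14 from the start, and Ctsl and Gaa held only the core. Flanked elements numbered 2 in Mcoln1, at -73 and -45, 2 in Ctsd, at -98 and -245, and 2 in Ctsa, at -14 and 6. Naglu and Glb1 had 1 each, at -75 and -50. The element of Gla lay farther out, at -196.

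**Figure D1:**
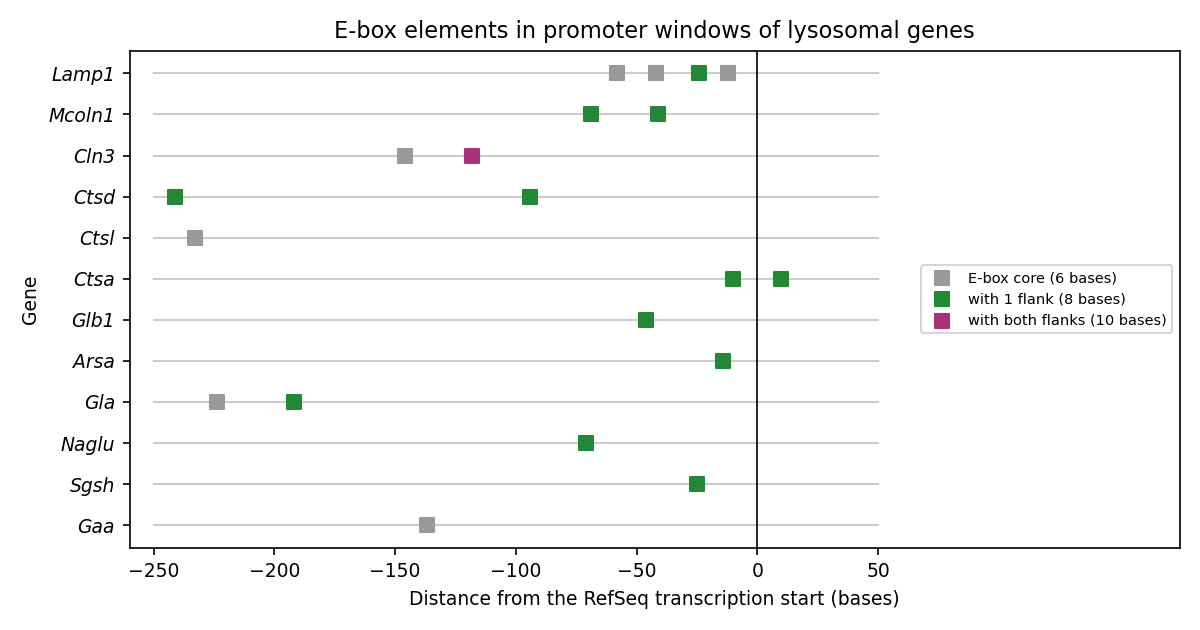
Position of E-box elements (horizontal axis, bases from the RefSeq transcription start) in the promoter windows of the 12 lysosomal genes that hold one, 1 gene per line. Grey squares are the 6-base core, green squares the 8-base element with 1 flank and the purple square the 10-base element of Cln3, and Lamp1 has 4 squares within 70 bases of its start.

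The tissue label was checked with 12 markers of cardiomyocytes, all of them present in every library at a summed level of 171994 to 195314 TPM. TPM, a share of all transcripts that corrects for gene length, lets levels of different genes be set side by side. The steps of the low values put the depth at 9556387 to 15969980 assigned reads per library. Paro/Neo replicate 1 stood apart from the rest, with a mean correlation of 0.9755 with the other libraries against 0.9814 to 0.9853. Its deviations from the mean of all libraries followed the GC content of the transcripts (Spearman coefficient across genes -0.349). In the other libraries the coefficient was -0.117 to 0.3. The 0.3 of Vehicle replicate 2 was a trend of nearly that size in the opposite direction. Many results of the 34 genes are therefore given also without Paro/Neo replicate 1.

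The 34 genes spanned a wide range of levels in vehicle hearts. Ctsd, the aspartic protease cathepsin D, was the most abundant at 1061 TPM ± 36.1 (SD, n = 3), 28.7% of the summed level of the 34 genes. Together with Lamp1, Psap, Ctsl and Ctsb it made up 71.3% of that sum. At the low end stood Cln3, a membrane protein mutated in juvenile Batten disease, at 2.25 TPM ± 0.529, and Sgsh, a heparan sulfatase, at 2.36 TPM ± 0.168. In all, 9 genes were at 100 TPM or more and 12 below 10 TPM. The fewest reads of any of the 34 genes in a library were 35, for Cln3 in Vehicle replicate 2, so each gene was measured in every heart.

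**Figure D2:**
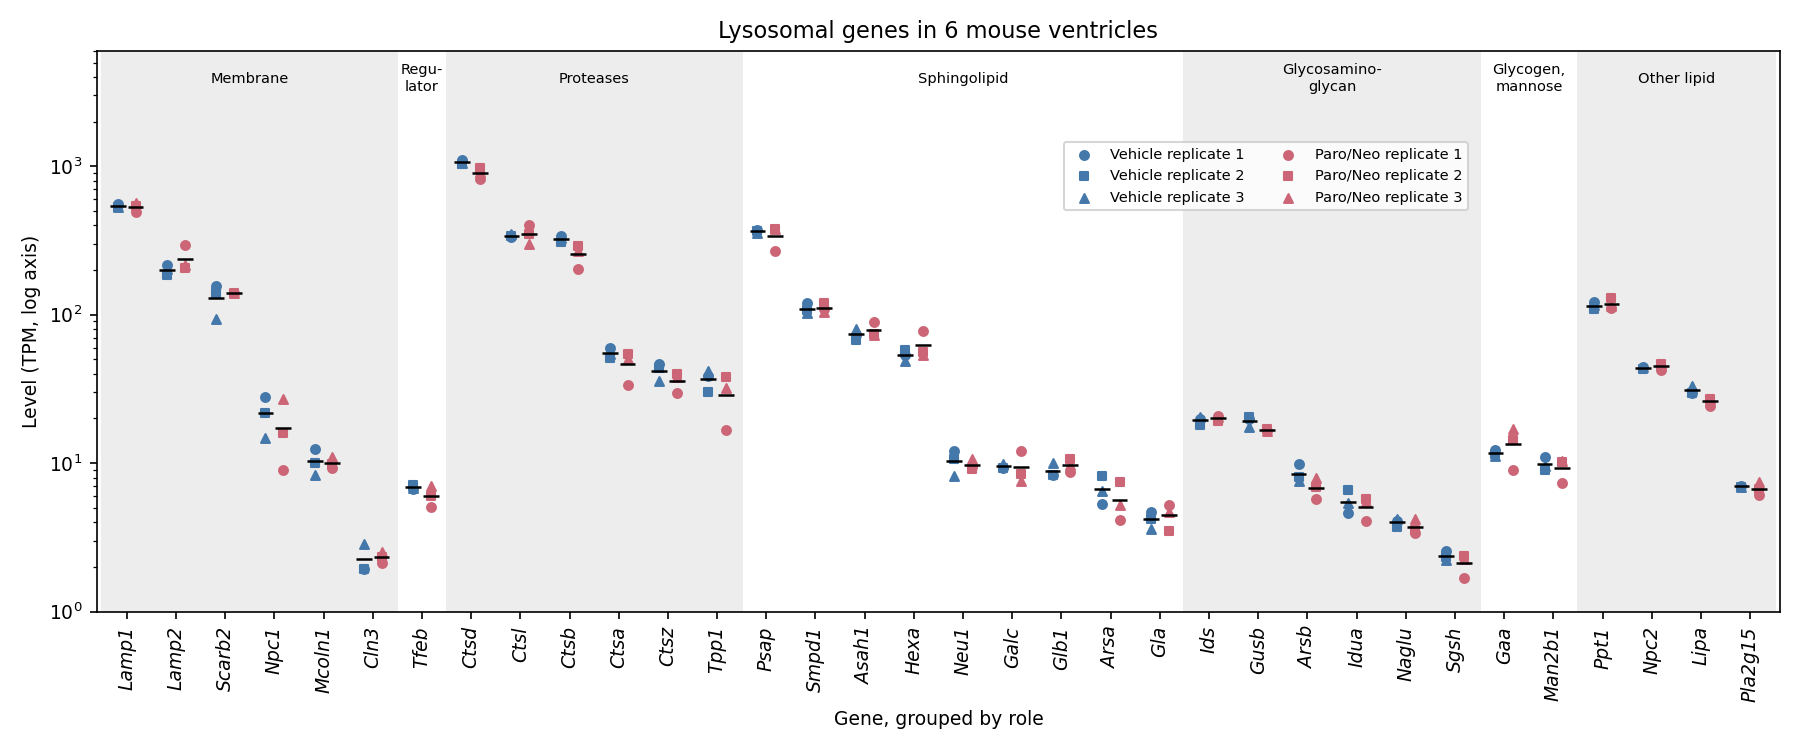
Level of each of the 34 lysosomal genes (vertical axis, TPM on a log axis) in 3 vehicle hearts (blue) and 3 Paro/Neo hearts (red), with symbols for replicates 1 to 3, black bars for the group means and genes grouped by role. Levels run from about 2 TPM for Cln3 and Sgsh to 1061 TPM for Ctsd in vehicle, and most pairs of groups overlap.

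The comparison asks whether 14 days of the antibiotics changed the transcripts of the lysosome, the organelle in which these drugs collect. None of the 34 genes passed the threshold, an adjusted p under 0.05. The limma test of log2(TPM + 1), adjusted by Benjamini-Hochberg over all 12409 genes tested, gave adjusted p from 0.585 for Ctsb to 0.982 for Mcoln1, where 0.137% of all tested genes passed, 0.121% higher and 0.0161% lower. By limma-voom on the inferred reads, too, 0 of 34 passed, and 1 had an unadjusted p under 0.05. In Paro/Neo hearts 13 of the 34 were higher and 21 lower, where 46.3% of all tested genes were higher and 53.7% lower. The median change was -0.06 (log2), beside -0.02 over all genes tested. Without adjustment 3 of the 34 had a p under 0.05, all lower, where 4.37% of all tested genes did so in that direction, 3.24% in the other and 7.61% in either. The groups did not overlap for 4 of the 34 genes, 11.8%, all lower, against 14.3% of all tested genes in either direction, 8.22% in the lower direction and 6.04% in the higher. A share of that size is near the background and is not a result about these genes.

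A p above the threshold does not show that levels were alike, and the intervals set the size of change the data leave room for. For 32 of the 34 genes the 95% interval of the log2 change lay within a 2-fold change in either direction, as it did for 93.9% of all tested genes. The 2 exceptions were Npc1, the membrane transporter that passes cholesterol out of the lysosome, with an interval from -1.22 to 0.46, and Tpp1, tripeptidyl peptidase 1, with one from -1.04 to 0.23. Without Paro/Neo replicate 1 the intervals of all 34 genes lay within 2-fold. Then 17 genes were higher and 17 lower, and the median log2 change was -0.002.

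**Figure D3:**
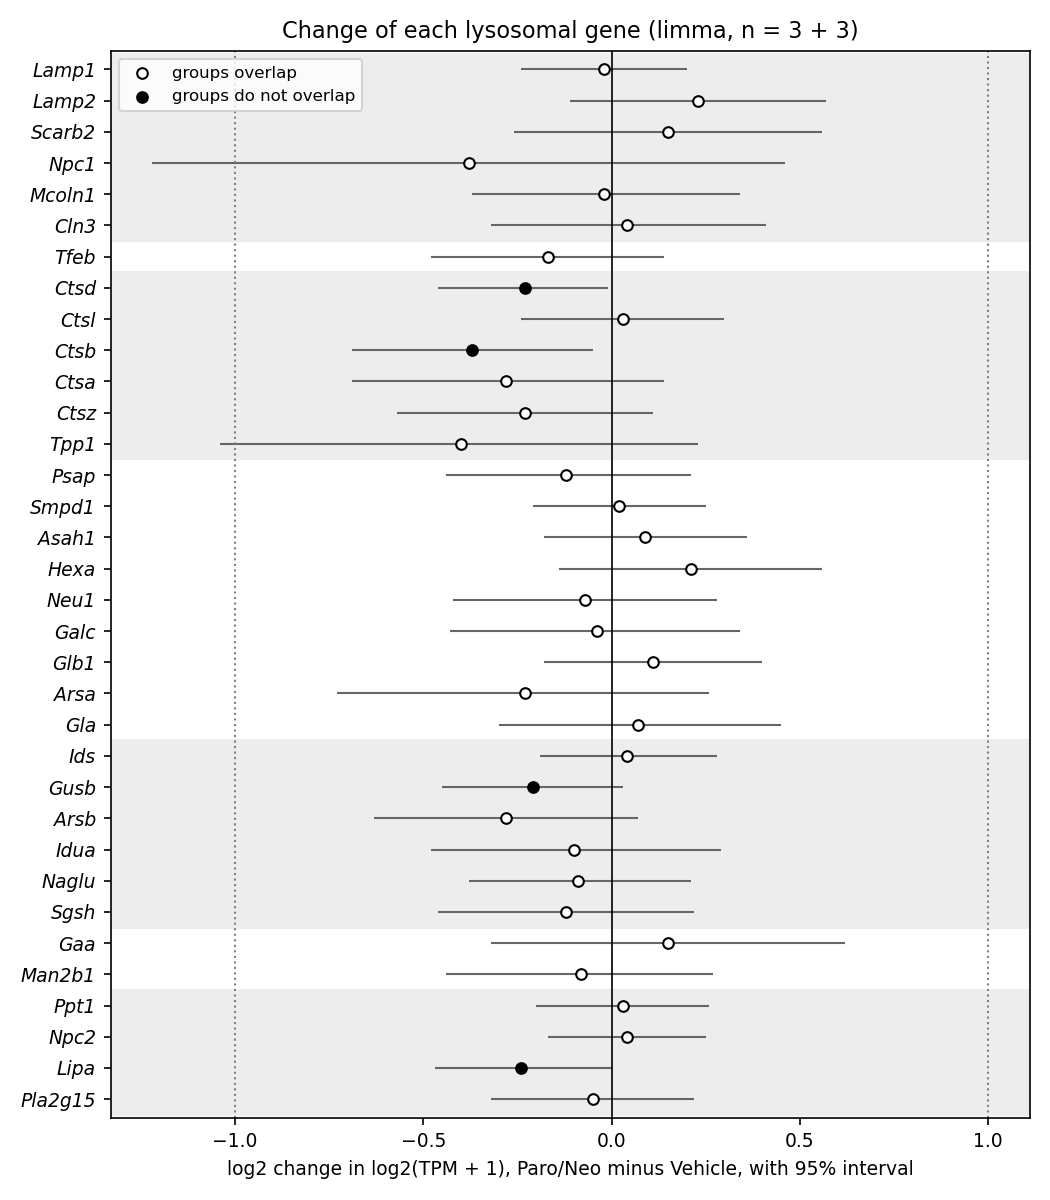
Log2 change of each gene (horizontal axis, Paro/Neo minus Vehicle on the log2(TPM + 1) scale) with its 95% interval from limma, 3 against 3 hearts, genes in the order of the plot of levels; dotted lines mark a 2-fold change. Filled points are the 4 genes whose groups do not overlap, Ctsd, Ctsb, Gusb and Lipa, and only the intervals of Npc1 and Tpp1 cross a dotted line.

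Of the 6 protease genes 5 were lower and 1 was higher in treated hearts, none past the threshold, and their median change was -0.26 (log2). Without Paro/Neo replicate 1 all 6 were lower, with a median of -0.09. Their summed level was 1916, 1803 and 1863 TPM in Vehicle replicates 1 to 3 and 1505, 1750.4 and 1606 TPM in Paro/Neo replicates 1 to 3. Each treated heart was therefore below each vehicle heart, with Paro/Neo replicate 1 the lowest. Most of that sum was Ctsd, cathepsin D, whose own groups did not overlap. The separation of the sum is therefore not a result separate from that gene, and sums without it are not given.

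Ctsb, the cysteine protease cathepsin B (chromosome 14, 63122462 to 63145923, GENCODE M21 on GRCm38), was at 339, 309.8 and 329.9 TPM in vehicle and at 204, 292 and 269 TPM in Paro/Neo hearts. All treated hearts were lower than all vehicle hearts, Paro/Neo replicate 1 by the widest margin. The log2 change was -0.37 ± 0.14 (SE), for which limma gave an adjusted p of 0.585 (unadjusted 0.0292), and without Paro/Neo replicate 1 it was -0.22 ± 0.08. The value thus shrank when that heart was left out, while its sign held in 15 of 15 other fits, in which the adjusted p ranged from 0.466 to 0.882. Exons of Ctsb share 12.8% of their bases with Fdft1, a gene of sterol synthesis on the other strand, and the strand setting of the authors' counting is not given in the sources used here.

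Ctsd itself (chromosome 7, 142375911 to 142388038) was at 1101, 1030.2 and 1051 TPM in vehicle and at 822, 975 and 917 TPM in Paro/Neo hearts. The treated hearts were again all below the vehicle hearts. Its log2 change was -0.23 ± 0.10 with an adjusted p of 0.646 by limma (unadjusted 0.0455), and -0.17 ± 0.08 without Paro/Neo replicate 1. Over the alternatives its adjusted p ranged from 0.513 to 0.896. The annotation places 34.4% of the exon bases of Ctsd also in Gm49369 on the same strand, a feature not analysed here.

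The other proteases overlapped between the groups. Ctsa, protective protein cathepsin A, which keeps beta-galactosidase and neuraminidase stable in their complex, was at 60.0, 50.8 and 54.6 TPM in vehicle and at 33.5, 54.6 and 50.4 TPM in Paro/Neo hearts. Ctsz, the carboxypeptidase cathepsin Z, was at 46.3, 43.7 and 35.9 against 29.5, 39.6 and 38.0 TPM. In both genes Paro/Neo replicate 1 was the lowest of the 6 libraries and the other treated hearts lay within or close to the vehicle range. The same held for Tpp1, which removes tripeptides from protein ends, at 38.7, 30.1 and 41.7 TPM against 16.8, 37.8 and 32.1 TPM. Its log2 change was -0.40 ± 0.28 over all hearts and -0.065 ± 0.15 without Paro/Neo replicate 1, and those of Ctsa and Ctsz were -0.28 ± 0.18 and -0.23 ± 0.15 over all hearts and -0.068 ± 0.10 and -0.10 ± 0.12 without it. Ctsl, the cysteine protease cathepsin L, was the 1 protease higher in treated hearts, at 340.3 TPM ± 9.28 against 350.2 TPM ± 49.8 (SD, n = 3 each).

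**Figure D4:**
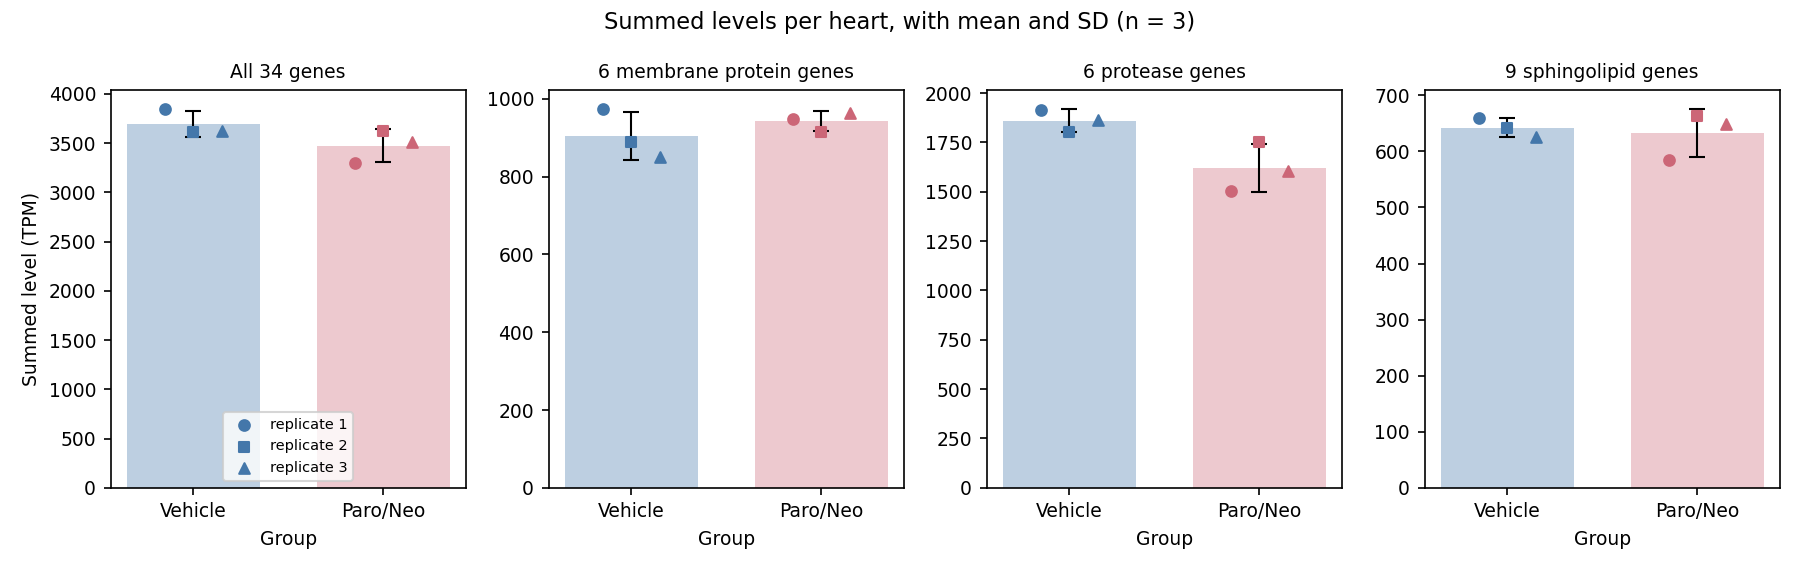
Summed level (vertical axes, TPM, from 0) of all 34 genes and of the membrane protein, protease and sphingolipid genes in each heart, with bars for the mean, whiskers for the SD (n = 3) and symbols for replicates 1 to 3. The groups overlap for the 34 genes, the membrane proteins and the sphingolipid genes. The protease sums are 1803 to 1916 TPM in vehicle and 1505 to 1750.4 TPM in Paro/Neo hearts, and most of each is Ctsd, whose own groups do not overlap.

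Genes of the lysosomal membrane showed no common direction, with 3 of 6 higher and 3 lower, and a summed level of 904 TPM ± 62.6 against 943 TPM ± 25.8. Lamp1 (chromosome 8, 13159161 to 13175338), a main glycoprotein of the membrane, was at 561, 529 and 529.7 TPM in vehicle and 491, 541 and 569 TPM in Paro/Neo hearts. The treated hearts lay on both sides of the vehicle hearts, and the log2 change was -0.02 with a 95% interval from -0.24 to 0.20. Its direction turned in 6 of 15 other fits, all with values close to 0. The paralog Lamp2 (chromosome X, 38401357 to 38456454), which also serves chaperone-mediated autophagy, was at 215, 186 and 202 TPM against 296, 205 and 215 TPM. Here Paro/Neo replicate 1 was the highest library and the other treated hearts overlapped with vehicle. The log2 change of 0.23 ± 0.15 (adjusted p = 0.744 by limma) became 0.067 ± 0.09 without that heart.

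Npc1 varied more among hearts of a group than any other of the 34 genes, with coefficients of variation of 30.7% in vehicle and 52.5% in Paro/Neo. It was at 28.1, 21.8 and 14.8 TPM in vehicle and at 8.99, 15.9 and 27.0 TPM in treated hearts, so the groups overlapped, with Paro/Neo replicate 1 below every vehicle heart. The ratio of its means was 0.802 over all hearts and 0.995 without that heart. Its soluble partner Npc2, which hands cholesterol to NPC1, was steady at 44.0 TPM ± 0.669 and 45.2 TPM ± 2.27. Scarb2, which encodes LIMP-2, a membrane protein that also serves as a sorting receptor, was at 155, 140.4 and 92.9 TPM in vehicle and between 140.4 and 141 TPM in all 3 treated hearts. Mcoln1, the calcium channel TRPML1, was at 12.5, 9.98 and 8.33 TPM in vehicle and 9.26, 9.85 and 11.0 TPM in treated hearts, and Cln3 was at 2.25 TPM ± 0.529 and 2.33 TPM ± 0.205. The group means of Npc1, Scarb2, Mcoln1 and Cln3 differed by less than the SD among vehicle hearts.

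Tfeb, the factor that drives many of these genes (chromosome 17, 47737030 to 47792419), was at 6.74, 7.07 and 6.76 TPM in vehicle and 5.07, 5.97 and 7.05 TPM in Paro/Neo hearts. Paro/Neo replicates 1 and 2 were below the vehicle range and replicate 3 was within it. Its log2 change was -0.17 ± 0.13 with an adjusted p of 0.778 by limma, and -0.069 ± 0.12 without Paro/Neo replicate 1. Its activity depends on phosphorylation and location, which mRNA levels do not measure. The 10 genes with the 8-base element, the core with at least 1 flank, in their window had a median change of -0.05 (log2), 3 being higher and 7 lower. The 21 genes with a window but without that element had the same median, 9 being higher and 12 lower. No difference between these sets was tested.

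Genes for the breakdown of sphingolipids and their sugars showed no common direction, as 5 of 9 were higher and 4 lower, and their median change was 0.02 (log2). Hexa, the alpha chain of beta-hexosaminidase whose loss causes Tay-Sachs disease, was at 53.6, 57.6 and 48.4 TPM in vehicle and at 77.3, 56.0 and 53.9 TPM in Paro/Neo hearts. The high value of Paro/Neo replicate 1 set its log2 change of 0.21 ± 0.15 (adjusted p = 0.763 by limma), which was 0.049 ± 0.10 without that heart. Psap, the precursor of the saposins that present lipids to the enzymes, was at 374, 369 and 356 TPM against 269, 376 and 379 TPM. Here the same heart was the lowest, and the other treated hearts were just above the vehicle hearts. The ratio of means of Psap was 0.932 over all hearts and 1.03 without Paro/Neo replicate 1. Smpd1, the acid sphingomyelinase, was at 109.6 TPM ± 8.25 and 111 TPM ± 7.11. This enzyme loses activity under cationic amphiphilic drugs that cause phospholipid storage, and its transcript had a 95% interval from -0.21 to 0.25 (log2). Asah1, acid ceramidase, was at 73.9 TPM ± 6.38 and 78.9 TPM ± 8.65, and Glb1, beta-galactosidase, at 8.91 TPM ± 0.994 and 9.67 TPM ± 0.913. Galc, Neu1, Gla and Arsa, which encode galactosylceramidase, neuraminidase 1, alpha-galactosidase A and arylsulfatase A, were between 4.19 and 10.3 TPM in vehicle. Their log2 changes ran from -0.23 ± 0.22 for Arsa to 0.07 ± 0.16 for Gla, and the groups overlapped in all 4. For Arsa the ratio of means was 0.838 over all hearts and 0.950 without Paro/Neo replicate 1.

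Genes for the breakdown of glycosaminoglycans were lower in 5 of 6 cases, none past the threshold, and their median change was -0.11 (log2), or -0.03 without Paro/Neo replicate 1. Their summed level was 60.6, 59.5 and 57.2 TPM in vehicle and 52.1, 54.5 and 56.6 TPM in Paro/Neo hearts, so the groups were apart by a narrow margin. That sum includes Gusb, the 1 gene of the 6 whose own groups did not overlap, and is not a result separate from it. Gusb, beta-glucuronidase (chromosome 5, 129989011 to 130003049), was at 19.7, 20.6 and 17.6 TPM in vehicle and at 16.4, 16.9 and 16.4 TPM in Paro/Neo hearts. The treated hearts were nearly equal and all below vehicle, and the log2 change of -0.21 ± 0.10 (adjusted p = 0.698 by limma) was -0.20 ± 0.10 without Paro/Neo replicate 1. Arsb, arylsulfatase B (chromosome 13, 93771630 to 93943016), was at 9.89, 8.01 and 7.60 TPM against 5.73, 6.89 and 7.94 TPM. Its groups overlapped through Paro/Neo replicate 3, with an adjusted p of 0.708 by limma and a log2 change of -0.28 ± 0.15, or -0.17 ± 0.14 without Paro/Neo replicate 1. Naglu, Sgsh and Idua, enzymes of heparan sulfate breakdown, had log2 changes of -0.09 ± 0.13, -0.12 ± 0.15 and -0.10 ± 0.17, and Ids, iduronate sulfatase, one of 0.04 ± 0.10. Each of those 4 changes was smaller than its SE, and the groups overlapped.

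Among lipid and glycogen enzymes, Lipa (chromosome 19, 34492318 to 34527474), the acid lipase that frees cholesterol from its esters, was at 29.8, 29.9 and 33.3 TPM in vehicle and at 24.3, 27.0 and 27.0 TPM in Paro/Neo hearts. All treated hearts were below all vehicle hearts. The log2 change was -0.24 ± 0.10 with an adjusted p of 0.651 by limma (unadjusted 0.0487), and -0.19 ± 0.09 without Paro/Neo replicate 1. Pla2g15, the lysosomal phospholipase A2, an enzyme inhibited by drugs that cause phospholipid storage, was at 7.04, 6.95 and 6.92 TPM against 6.08, 6.68 and 7.42 TPM. The treated hearts lay on both sides of the vehicle hearts, and the 95% interval was -0.32 to 0.22. Ppt1, palmitoyl-protein thioesterase 1, was at 115 TPM ± 6.50 and 118 TPM ± 9.61. Gaa, the acid alpha-glucosidase that degrades glycogen and is deficient in Pompe disease, was at 12.3, 11.5 and 11.2 TPM in vehicle and at 9.05, 14.4 and 17.0 TPM in treated hearts. Paro/Neo replicate 1 was below and the other 2 treated hearts above every vehicle heart, and the ratio of means was 1.16 over all hearts and 1.35 without that heart. Without it, Gaa had an unadjusted p of 0.00938 and an adjusted p of 0.462, the lowest adjusted p of any of the 34 genes in any fit. Man2b1, lysosomal alpha-mannosidase, was at 9.87 TPM ± 1.00 and 9.33 TPM ± 1.70.

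Paro/Neo replicate 1 accounted for the widest deviations. It was below the vehicle mean in 25 of 34 genes, with a median of -0.18 (log2), while Paro/Neo replicates 2 and 3 were below it in 16 genes each, with medians of 0.01 and 0.03. Its largest deviations below the vehicle mean were -1.13 for Npc1, -1.07 for Tpp1, -0.70 for Ctsa, -0.67 for Ctsb and -0.57 for Arsa. The largest above it were 0.56 for Lamp2 and 0.53 for Hexa. Across the 34 genes its deviations had a Spearman coefficient of -0.44 with transcript GC content, against 0.10 and -0.07 in Paro/Neo replicates 2 and 3. Over all tested genes, also from the vehicle mean, the coefficients were -0.33, -0.04 and 0.03 in Paro/Neo replicates 1 to 3. The 34 points of a heart share 1 library and 1 vehicle mean, so this is a description. A fit that corrected for GC content left 15 genes higher and 19 lower and a median change of -0.021 (log2). In it Ctsb was at -0.32 ± 0.12, with an adjusted p of 0.549 by limma.

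**Figure D5:**
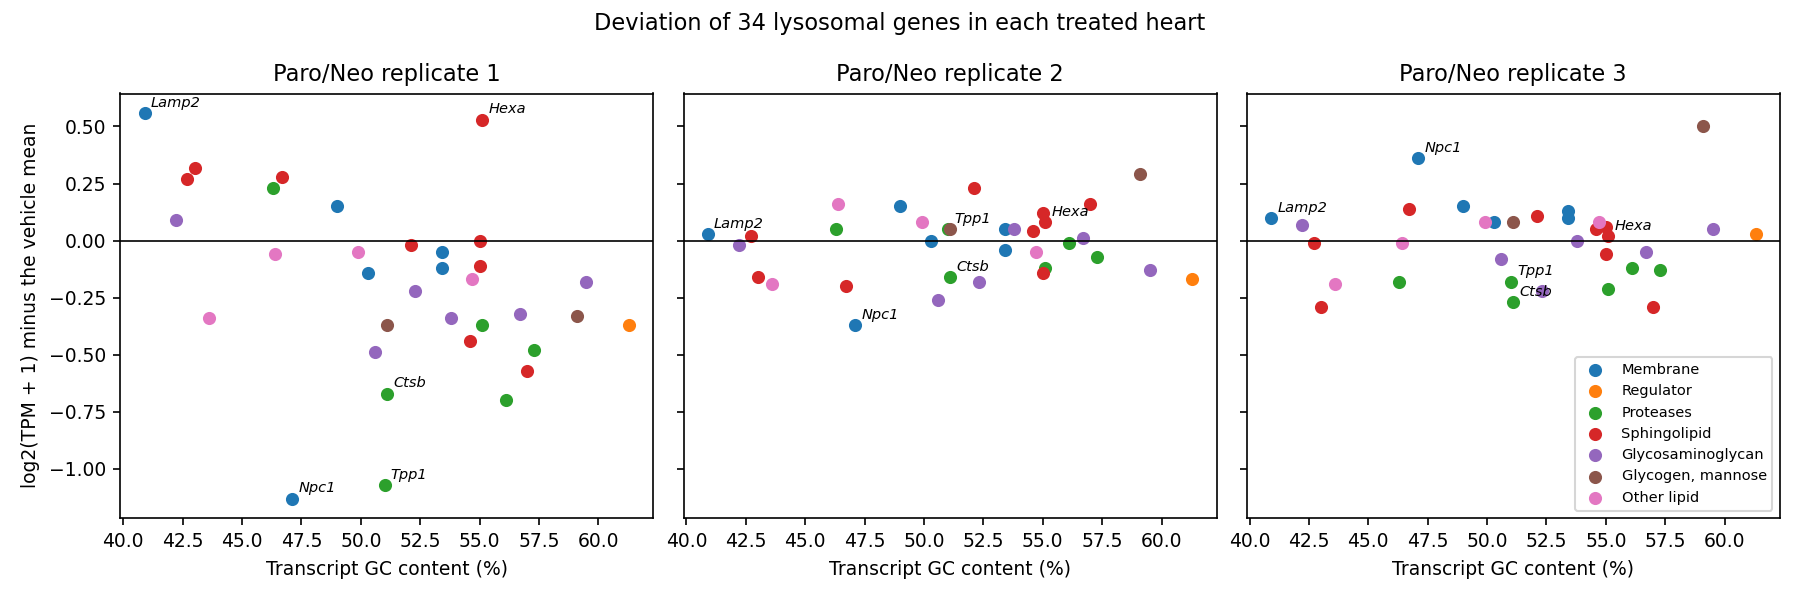
Deviation of each of the 34 genes from the vehicle mean (vertical axis, log2(TPM + 1)) against the GC content of its transcripts (horizontal axis, percent) in Paro/Neo replicates 1 to 3, coloured by role. In replicate 1 the points run from -1.13 to 0.56 and slope downward, and in replicates 2 and 3 they stay between -0.37 and 0.50, with Spearman coefficients of 0.10 and -0.07.

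Other genes of the lysosome and of the pathways around it were taken from lists written by role. None of their members passed the threshold of limma. Of 46 other lysosomal genes 22 were higher and 24 lower. An unadjusted p under 0.05 by limma was reached by 3 of them, where 7.61% of all tested genes did so. That count is near the background and is not a result about these genes. The smallest p belonged to Ctss, cathepsin S, an antigen-processing protease of macrophages and other antigen-presenting cells, at 37.9, 36.5 and 39.0 TPM in vehicle and 59.6, 50.3 and 56.0 TPM in Paro/Neo hearts. All treated hearts were higher, by a log2 change of 0.53 ± 0.10 with an adjusted p of 0.166. Next was Ctsk, cathepsin K, a collagen-degrading protease, at 12.9 TPM ± 1.10 against 8.29 TPM ± 3.57 (adjusted p = 0.568 by limma).

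Macrophages are rich in lysosomes, so their markers are given beside these values. Of 22 macrophage and monocyte markers 21 were tested, 20 of them higher and 1 lower, 4 with an unadjusted p under 0.05, all higher, and none past the threshold. Over all tested genes 46.3% were higher, and 3.24% were higher at that unadjusted p. The summed level of the macrophage markers was 700.4 to 828 TPM in vehicle and 845 to 887 TPM in Paro/Neo hearts, and none of them was at 0 in any library. Those ranges do not overlap, but they did without Lyz2, lysozyme, the most abundant marker, whose own groups overlapped. In that check, chosen after the values were seen, the sums were 448.0, 420.5 and 403 TPM in vehicle and 446, 513 and 512 TPM in Paro/Neo hearts. There only Paro/Neo replicate 1 lay within the vehicle range. With Lyz2 kept and that heart left out, 19 markers were higher and 2 lower. By limma 6 had an unadjusted p under 0.05, as did 905 of all 12409 tested genes, and none passed the threshold. The median log2 change of the markers was 0.20 over all hearts and 0.28 without that heart. The 1 marker that was lower over all hearts was Cd68, itself a lysosomal membrane glycoprotein, at 16.5 against 13.3 TPM, and its groups did not overlap. Of the 21 tested macrophage markers 3 were higher without overlap of the groups, where 6.04% of all tested genes were. All 10 fibroblast markers were lower, 6 at an unadjusted p under 0.05 and 7 with groups that did not overlap, and none passed the threshold, where 4.37% and 8.22% of all tested genes were lower in these ways. Their summed levels were 2807 to 2918 TPM in vehicle and 2477 to 2743 TPM in Paro/Neo hearts, and none was at 0. Without Paro/Neo replicate 1, 2 fibroblast markers were higher and 8 lower, 5 at an unadjusted p under 0.05 by limma and none past the threshold. The median log2 change of the fibroblast markers was -0.31 over all hearts and -0.27 without that heart. Of 10 endothelial markers 9 were lower and 1 higher, 1 at an unadjusted p under 0.05, with summed levels of 660.3 to 759 TPM and 500.1 to 691 TPM. When Paro/Neo replicate 1 was left out, 8 endothelial markers were lower and 2 higher, none at an unadjusted p under 0.05 by limma. Their median log2 change was -0.27 over all hearts and -0.14 without that heart. The part of these cell types in the values of the 34 genes was not tested.

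The 17 tested subunits and accessory proteins of the V-ATPase were split, 10 being higher and 7 lower. Atp6v0a1, a membrane subunit, had the smallest p, at 9.64, 11.4 and 8.23 TPM in vehicle and 14.1, 13.4 and 12.1 TPM in treated hearts (adjusted p = 0.514 by limma), and Atp6v1b2, a subunit of its cytosolic sector, was at 83.6 TPM ± 5.63 against 73.4 TPM ± 8.74. The proton channel subunit Atp6v0c was listed at under 1 TPM in every library, with 0 to 6 inferred reads, and was not tested. The other listed Atp6v0 genes ranged from 9.76 TPM (Atp6v0a1) to 121 TPM (Atp6v0e) in vehicle. Whether the low value of Atp6v0c reflects the tissue or the counting of reads was not tested, so it does not show that the gene is silent. Of 16 genes of mannose 6-phosphate tagging and sorting 4 were higher and 12 lower, led by the retromer gene Vps26a (105 TPM ± 11.1 against 123 TPM ± 8.95) and the clathrin adaptor gene Ap1g1 (25.8 TPM ± 0.150 against 22.1 TPM ± 2.71), with adjusted p of 0.693 and 0.703 by limma.

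Among 20 tested genes of the TFEB relatives and mTORC1, 11 were higher and 9 lower. Tfe3 and Mitf, the relatives of Tfeb that bind the same element, were at 5.31 TPM ± 0.989 and 47.5 TPM ± 3.92 in vehicle and at 5.58 TPM ± 0.943 and 49.6 TPM ± 6.70 in Paro/Neo hearts. Mitf was thus several times as abundant as Tfeb and Tfe3 in this tissue. Rragd, a Rag GTPase that brings mTORC1 to the lysosome, had the smallest p, at 57.4, 87.9 and 78.2 TPM against 142, 95.1 and 94.5 TPM, with no overlap and an adjusted p of 0.565 by limma. Its ratio of means was 1.48, or 1.27 without Paro/Neo replicate 1. Fnip1, part of the folliculin complex that acts on Rag GTPases, was at 54.9 TPM ± 6.34 against 68.6 TPM ± 17.3, a ratio of 1.25, or 1.07 without that heart. Among 33 autophagy genes, 18 higher and 15 lower, the smallest p belonged to Atg3, which attaches LC3 to lipid (40.1 TPM ± 0.666 against 49.0 TPM ± 3.38, adjusted p = 0.521 by limma), and Wipi1 (95.8 TPM ± 7.32 against 113 TPM ± 7.26). The autophagy receptor gene Sqstm1 was at 337 TPM ± 28.5 and 331 TPM ± 62.5.

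Genes that sense or repair damaged lysosomes, such as galectins and ESCRT subunits, numbered 18, with 6 higher and 12 lower. None had an unadjusted p under 0.05 by limma, where 7.61% of all tested genes did. The lipid kinase gene Pi4k2a, which starts a repair pathway, was at 6.64 TPM ± 0.0642 against 7.47 TPM ± 0.397, and Trim16, a partner of galectin-3, at 4.96 TPM ± 0.170 against 4.33 TPM ± 0.547. The endocytic receptors that take up aminoglycosides in the kidney were close to absent from these hearts. Lrp2, megalin, had 0 to 3 reads per library and was listed at no more than 0.0290 TPM, and Cubn, cubilin, had 9 to 33 reads and was at 0.280 TPM ± 0.104 and 0.236 TPM ± 0.0504. A difference in Lrp2 was not detectable at this depth. Lrpap1, a chaperone of megalin, and Dab2, its cytosolic adaptor, were at 49.8 and 27.9 TPM in vehicle and at 46.9 and 24.4 TPM in treated hearts, with adjusted p of 0.849 and 0.748 by limma.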

How the data were processed

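mRNA of 6 ventricle libraries was analysed, 3 Vehicle and 3 Paro/Neo, grouped by sample title. Libraries were stranded (KAPA kit) with 76 bp reads, per the labels' protocols and descriptions. Build mm10 and the tools STAR 2.5.3a, edgeR, Subread, featureCounts and FastQC 0.11.5 are listed in the submitters' processing notes without role or order. For annotation, strand setting and feature filter the answer is "not given in the sources used here". TPM values were deposited by the authors, and each library has 1 common sum, so genes compete for shares of it.

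Values were transformed to log2(TPM + 1), which understates changes of low genes. Features reaching 1 TPM in 3 libraries or more, 12409 with all 34 genes among them, were fitted with limma 3.58.1 in R 4.3.3 (eBayes with trend, 2-sided, Benjamini-Hochberg over all features, threshold 0.05), after a test on simulated data. SEs are moderated, and intervals are 95%. An exact permutation test of 3 against 3 mice could not reach the threshold and was not used. Whether the mice of a group shared a litter or cage is not stated.

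Reads were inferred from the steps of the TPM values. With these, 17574 of 17574 features above 0 came out whole within 0.001 of a read, as lower estimates. They served for depth and 1 alternative. Of the 34 genes, 11 share exon bases with another feature of the table, 10 on the other strand (up to 21.6% of exon bases, Sgsh with Card14) and Glb1 with Tmppe on its own strand.

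Genes and lists were chosen by name and role and not by how they moved, but earlier results of these data were known when they and the tests were chosen. Values in every heart are given for the 10 smallest p, for groups that do not overlap and for Lamp1, Ctsd and Tfeb. Npc1, Scarb2, Psap, Pla2g15, Gaa and Mcoln1 were added after their values were seen, as were Cd68 and Atp6v0c. From each other list the 2 smallest p and Tfe3, Mitf, Sqstm1, Lrp2 and Cubn are named; some other genes of that rule are not reported here. GC content is that of GENCODE M21 transcripts. Alternatives were another pseudocount, other filters, leaving out each library, a replicate block, array weights, rescaling, GC correction and limma-voom.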

Additional observations from a re-analysis of the deposited data

How the results depend on the processing

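In all 15 other fits 0 of the 34 genes passed the threshold, with a lowest adjusted p of 0.462 by limma, and 17 of the 34 kept their sign. The median change ranged from -0.12 to -0.002. The number of the 34 genes at an unadjusted p under 0.05, 3 in the reported fit, was 0 to 2 when 1 library was left out, 1 with the replicate block, with rescaling by median ratios and with limma-voom, and 0 with the GC correction and the replicate block together. Lamp1, at -0.02, turned to 0.008 with array weights, 0.005 with rescaling, and 0.024 with the GC correction with or without the block, and ranged from -0.066 to 0.040 when 1 library was left out. Over all genes, 15 higher and 2 lower passed. Leaving out 1 library gave 4 (without Vehicle replicate 1) to 23 (without Paro/Neo replicate 2) higher and 0 to 4 lower. Without a filter these counts were 5 and 1, with the block 25 and 2, with GC correction and block 2 and 1, and with array weights 22 and 4. The cause of these shifts was not tested. By the replicate numbers of the titles, same-numbered libraries had correlations of -0.053, -0.036 and -0.122. The sample descriptions number the treated libraries differently. By those numbers, Vehicle replicate 2 with Paro/Neo replicate 1 had -0.052, and Vehicle replicate 3 with Paro/Neo replicate 2 had 0.011. With so few libraries these values showed no pairing but cannot decide whether mice were paired. The block changed no call among the 34 genes or the other lists. Depth limits the low genes most, Cln3 having 35 to 45 reads per library.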
